A study of Oryza sativa with 18 samples.

Results

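The 1000 regions of rice chromatin that stood most open in endosperm, of 128764 accessible regions in all, had a median accessibility of 13.6 CPM in the endosperm states, against 2.77 CPM in the seed states that are neither endosperm nor aleurone and 0.893 CPM in the states of the 7 other organs. CPM, here 2 raised to the deposited log2 value, is the signal of a region scaled to a nearly fixed total per cell state. The cell states also share nearly the same spread of values over all regions. The members were chosen from their own values. Each value was put on the scale log2(CPM + 1), the mean of all cell states of the same organ was subtracted, and the difference, called D below, was averaged over the endosperm states of late and early seed. The 1000 regions with the largest mean D were taken, so their high endosperm values are a description and not a finding.

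The study assayed nuclei of fresh tissue from the genotype Nipponbare by single-cell ATAC-seq: a transposase cuts the accessible DNA, and the fragments carry a barcode shared by the droplet of their nucleus. It covered 9 organs or stages with 2 libraries each and 16000 nuclei put into each library. The endosperm states were Central_endosperm, Dorsal_endosperm and Dorsal_lateral_endopserm (spelled as deposited) of late seed, and Central_endosperm, Dorsal_endosperm and Lateral_endosperm of early seed. They were set against the Aleurone state of each stage, 19 other seed states (9 of late and 10 of early seed) and 101 states of leaf, panicle, axillary bud, crown root, seminal root, seedling and early seedling. The labels give no age in days for either seed stage. Each state of an organ is a single value pooled over both libraries, so the values have no SD and no n, and no difference below could be tested against replicates. The cell state names are the authors' own. Region positions could not be placed on genes here, so the endosperm label was not checked against marker genes, and regions are named by position, counted from 1, in the coordinates of the files. Their genome build is not stated in the labels.

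The endosperm is the seed tissue that feeds the embryo. In cereals its inner, starchy cells fill with starch and with storage proteins such as glutelins and prolamins, while its surface layer, the aleurone, stays alive in the ripe grain and secretes the enzymes that release the reserves at germination. The dorsal side of a rice grain is the side on which the main vascular bundle delivers sugars and amino acids, and the central endosperm lies farthest from the surface. In rice, endosperm DNA is known to carry less methylation than that of the embryo.

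Across the 1000 regions the mean D ran between 1.29 and 1.93 with a median of 1.39, against a median of -0.01 over all regions. A mean D above 1 was reached by 3774 regions, or 2.93% of the table, so the set holds the upper part of a longer tail. A mean D above 0 was found for 48.7% of all regions. The last 3 regions taken and the first 3 not taken all had a mean D of 1.29. Just inside the limit lay chromosome 4 from 34233580 to 34234080, chromosome 3 from 18278274 to 18278774 and chromosome 12 from 9177760 to 9178260. Just outside lay chromosome 10 from 17756202 to 17756702, chromosome 12 from 19574700 to 19575200 and chromosome 9 from 19229082 to 19229582. As linear values, the mean endosperm CPM of a member was 4.90 times the mean of the other seed states at the median, with quartiles of 4.47 and 5.40. It was 14.7 times the mean of the states outside seeds, with quartiles of 10.0 and 19.5.

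**Figure D1:**
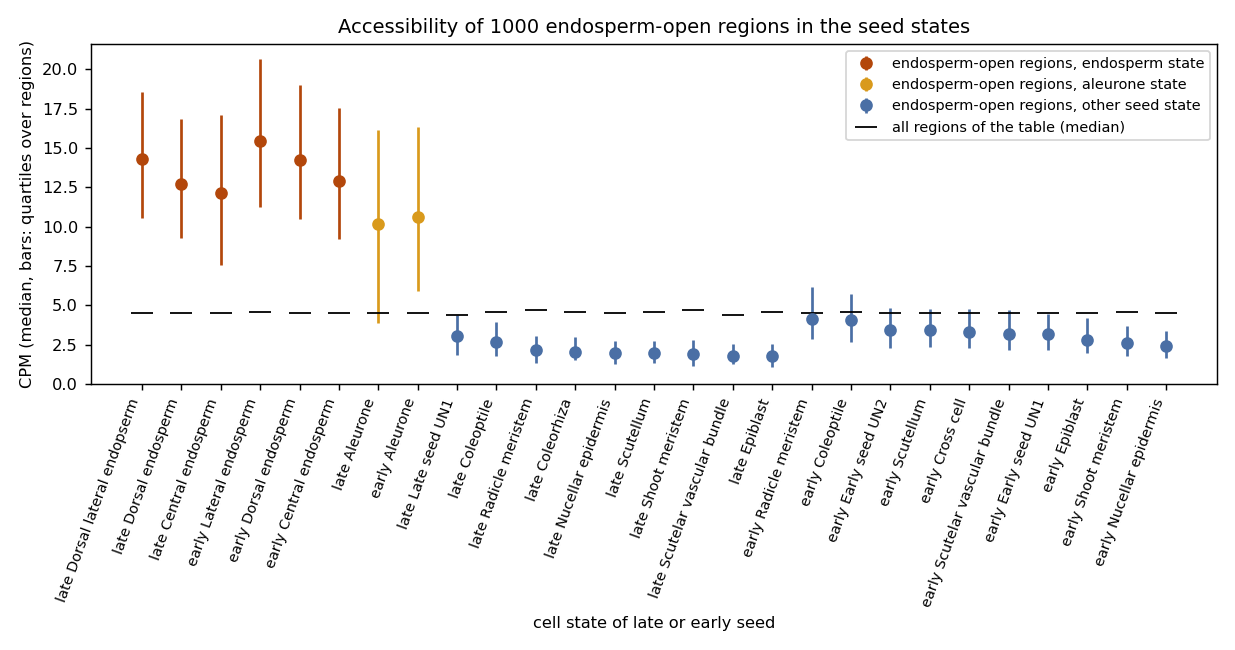
Median CPM of the 1000 endosperm-open regions in each of the 27 seed states (points, bars from the lower to the upper quartile over regions), with the median over all regions as a black dash. The 6 endosperm states lie between 12.1 and 15.4 CPM, the aleurone states at 10.1 and 10.6 CPM, and the other seed states between 1.76 and 4.15 CPM, while the median over all regions stays near 4.5 CPM throughout.

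By state, the member median was 14.3 CPM in dorsal-lateral, 12.7 CPM in dorsal and 12.1 CPM in central endosperm of late seed. In early seed it was 15.4 CPM in lateral, 14.3 CPM in dorsal and 12.9 CPM in central endosperm. Central endosperm was thus the lowest of the endosperm states in both stages. D was above 0 in all 6 states for 986 members, against 16.5% of all regions. D above 1 in all 6 was found for 575 members and 0.568% of all regions. Both shares follow from the choice and are given to show how evenly the 6 states carry it. Late central endosperm was the shallowest of the 6 states, with 145 distinct values in its column, against 357 and 372 in the other late endosperm states and 548 to 651 in the early ones. The number of distinct values stands in for depth, which the files do not give.

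The region with the largest mean D, 1.93, lies on chromosome 2 from 20534090 to 20534590. It had 16.0, 16.7 and 20.1 CPM in central, dorsal and dorsal-lateral endosperm of late seed, and 25.9, 28.5 and 29.6 CPM in central, dorsal and lateral endosperm of early seed. Aleurone had 4.99 CPM in late and 9.57 CPM in early seed. The other late seed states ran from 0.432 to 2.48 CPM with a median of 1.80 CPM, and the other early seed states from 2.88 to 8.62 CPM with a median of 4.97 CPM. The 101 states outside seeds ran from 0.137 to 2.41 CPM with a median of 0.608 CPM. Every endosperm value of this region lay above every value of the other 122 states. The authors' list calls it specific for 9 states, of which 6 are the endosperm states.

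The next 9 regions had a mean D between 1.71 and 1.77. Second in order, chromosome 8 from 2694599 to 2695099 had 11.4 to 16.5 CPM in late and 13.6 to 15.5 CPM in early endosperm, against at most 4.08 CPM outside seeds. Chromosome 12 from 13386783 to 13387283 was less even, with 14.9 CPM in central but 5.58 CPM in dorsal and 7.89 CPM in dorsal-lateral endosperm of late seed. In early seed it had 12.6, 11.0 and 16.5 CPM in central, dorsal and lateral endosperm. It was also the lowest of the 10 in aleurone, at 1.40 CPM in late and 3.07 CPM in early seed. On chromosome 1, the region from 138830 to 139330 had 19.6, 21.1 and 20.8 CPM in the late and 22, 26.7 and 27.8 CPM in the early endosperm states, and at most 3.57 CPM outside seeds. The 6 endosperm values of each of these 3 regions exceeded its values in aleurone and in every other state of the table.

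Among the rest of the 10, the region on chromosome 9 from 21465220 to 21465720 stands apart by its values outside the seed. It had 8.52 to 18.1 CPM in late and 18.8 to 27.8 CPM in early endosperm, but also 13.6 CPM in Developing_metaxylem of seminal root, and the authors' list calls it broadly accessible. The groups therefore overlap for this region, through its late central value of 8.52 CPM. The other members of the 10 lie on chromosome 5 from 7471052 to 7471552, chromosome 10 from 15356136 to 15356636, chromosome 1 from 13786002 to 13786502, chromosome 9 from 10571547 to 10572047 and chromosome 2 from 17349248 to 17349748. Their highest value outside seeds was between 1.42 and 2.66 CPM, and all 5 are named for endosperm in the list. The last of them was the only region of the 10 to be more open in late than in early endosperm by the mean of the log2 values, by 0.19.

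Aleurone was the state that shared most with the set, although the rule works against it, since aleurone is part of the organ mean that is subtracted. The members' mean aleurone level was 10.7 CPM at the median, against 4.63 CPM over all regions, and the ratio of aleurone to endosperm was 0.826 at the median. D was above 1 in the Aleurone state of both stages for 507 members (50.7%), against 3.19% of all regions, and below 0 in both for 83 members (8.3%), against 37% of all regions. D was above 0 in late aleurone for 854 members (all regions: 49.7%) and in early aleurone for 852 (all regions: 51.1%). The remaining 410 lay between. The distribution of the mean aleurone D had a main peak between 1.25 and 1.75 and a lower, broad one near 0. Of all 128 states, the highest value belonged to an endosperm state for 804 members (all regions: 10.6%), to an aleurone state for 166 (all regions: 4.8%) and to a state outside seeds for 30 (all regions: 68.2%).

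**Figure D2:**
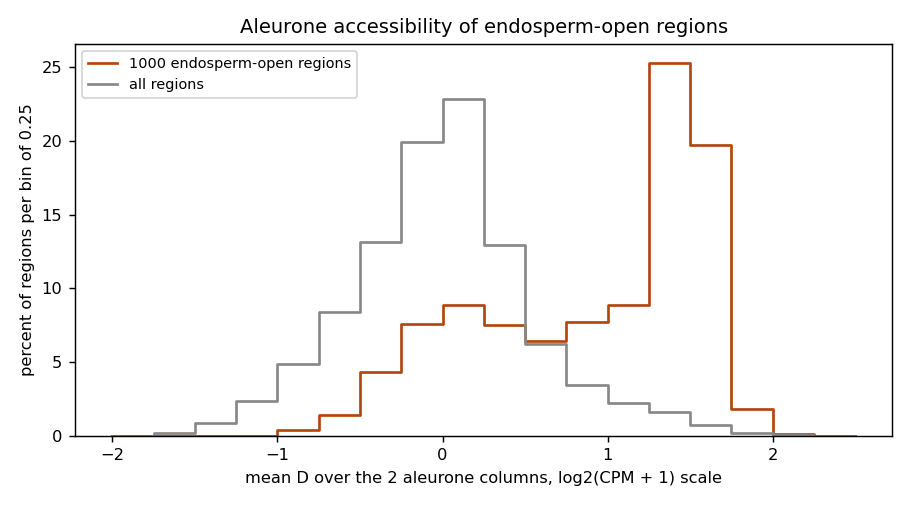
Percent of the 1000 endosperm-open regions and of all regions in bins of 0.25 of the mean D over the aleurone states of late and early seed, on the log2(CPM + 1) scale. The chosen regions form a high peak above 1 and a low one near 0, and all regions form a single peak near 0.

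The members open in aleurone differed from the others in further values. The 507 had a median of 14.8 CPM in endosperm, 15.4 CPM in aleurone, 3.06 CPM in the other seed states and 0.854 CPM outside seeds. The 83 low in aleurone had 11.4 CPM in endosperm, 2.42 CPM in aleurone, 2.28 CPM in the other seed states and 1.20 CPM outside seeds. In the class open in aleurone, the lowest endosperm value lay above every value outside seeds for 496 regions (97.8%), and in the class low in aleurone for 44 (53.0%), against 3.14% of all regions. The 410 between had 12.2 CPM in endosperm, 5.85 CPM in aleurone and 0.982 CPM outside seeds, and 300 of them (73.2%) had that separation. The late minus early difference of the endosperm log2 values was 0.01 at the median in the class open in aleurone, -0.42 in the class between and -0.43 in the class low in aleurone. The share named for endosperm in the authors' list ran the other way, with 312 (61.5%) of the open, 291 (71.0%) of the intermediate and 60 (72.3%) of the low class. Over all regions it was 10.4%. A region that the list calls broadly accessible carries no state name. Such regions made up 36.9%, 23.9% and 22.9% of these classes in the same order, against 60.1% of all regions.

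Stages were compared by choosing regions in 1 stage and reading them in the other, whose libraries that choice did not use. Of the 1000 regions with the largest mean D in the early endosperm states alone, 703 (70.3%) had a mean D above 1 in the late endosperm states, against 2.79% of all regions. Of the 1000 chosen in the late endosperm states, 909 (90.9%) had a mean D above 1 in the early states, against 4.08% of all regions. The median D in the stage not used was 1.22 and 1.25 in these directions, against -0.016 and -0.0022 over all regions. D was above 0 in the other stage for 999 and for all 1000 of the chosen regions, against 48% and 49.8% of all regions. The 2 choices shared 365 regions, or 36.5% of each. When early Central_endosperm was left out of the choice, 453 (45.3%) of the regions chosen in early seed passed 1 in late seed, against 2.79% of all regions. The late mean still included late Central_endosperm, and the reason for the lower share was not tested.

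**Figure D3:**
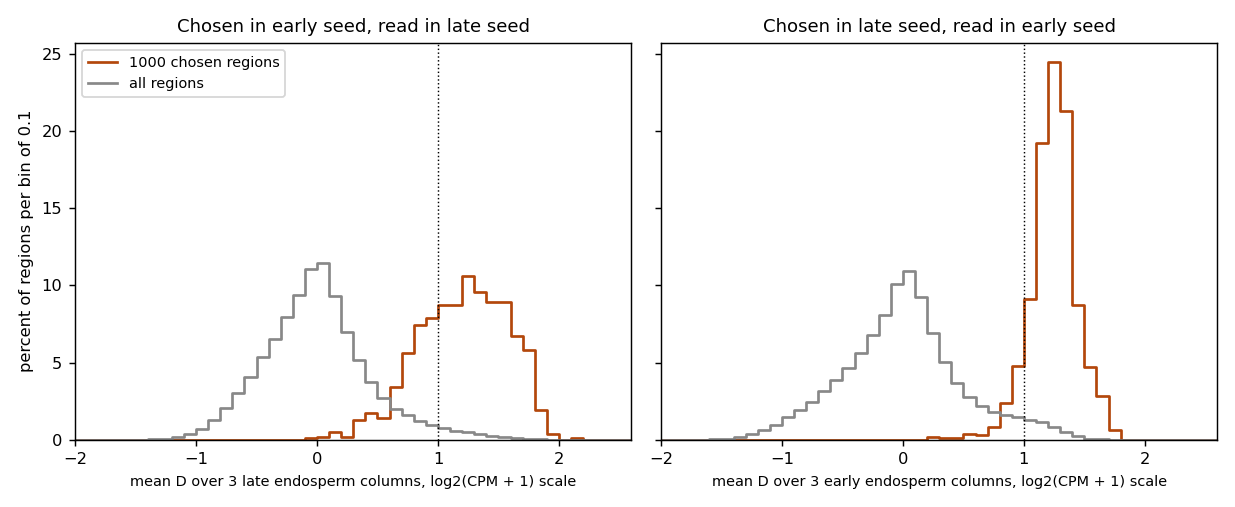
Left, mean D over the late endosperm states of the 1000 regions chosen on early endosperm alone; right, mean D over the early endosperm states of those chosen on late endosperm alone, each with all regions in grey, as percent of regions per bin of 0.1 and with a dotted line at 1. Both chosen sets centre above 1.2 in the stage that did not choose them, with medians of 1.22 and 1.25, and the late values spread more widely than the early ones.

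The late minus early difference of the mean endosperm log2(CPM + 1) had a median of -0.18, against 0.02 over all regions, with quartiles of -0.55 and 0.20. It was above 1 for 16 members (1.6%), against 3.73% of all regions, and below -1 for 58 (5.8%), against 4.66%. Late seed was the higher stage for 378 members (37.8%), against 51.6% of all regions. On the D scale, which subtracts the mean of each stage, the order was reversed. The members' median D was 1.49 in late and 1.32 in early endosperm, against -0.016 and -0.0022 over all regions. The drop was not limited to endosperm: the members' other seed states had a median of 2.18 CPM in late and 3.30 CPM in early seed. Label by label, late central endosperm was below early central endosperm by more than 1 for 123 members (all regions: 7.82%) and above it by more than 1 for 18 (all regions: 6.95%). For dorsal endosperm the counts were 89 lower (all regions: 6.97%) and 34 higher (all regions: 6.12%), and for aleurone 105 lower (all regions: 5.51%) and 16 higher (all regions: 4.95%). Late states are shallower by their distinct values, and the part of depth in these differences was not tested.

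The largest late minus early differences among members were 1.53, 1.48 and 1.42. The first belonged to chromosome 3 from 3696811 to 3697311, with 12.6, 16.8 and 12.6 CPM in central, dorsal and dorsal-lateral endosperm of late seed, against 8.69, 2.96 and 2.57 CPM in central, dorsal and lateral endosperm of early seed. All late values were above all early values, and the early central state was the nearest to them. The second, on chromosome 4 from 7732482 to 7732982, had 19.3, 19.4 and 17.1 CPM in late endosperm, against 5.44, 7.13 and 5.58 CPM in early endosperm. Its aleurone level moved with them, at 19.2 CPM in late and 5.41 CPM in early seed. The third, on chromosome 5 from 15530890 to 15531390, had 6.08, 15.0 and 19.5 CPM in late endosperm, against 2.72, 3.77 and 5.80 CPM in early endosperm. Here the late central value of 6.08 CPM was close to the early lateral value of 5.80 CPM, so the stages only just separate.

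The smallest differences were -1.91, -1.69 and -1.65. Lowest was chromosome 1 from 18376611 to 18377111, with 6.08, 1.87 and 2.55 CPM in central, dorsal and dorsal-lateral endosperm of late seed, against 14.6, 15.1 and 14.3 CPM in the early states. Its aleurone level was 0.425 CPM in late and 8.33 CPM in early seed, a gap in the same direction. Chromosome 11 from 14634156 to 14634656 had 2.57, 3.50 and 8.75 CPM in late endosperm, against 11.4, 18.6 and 20.8 CPM in early endosperm. Chromosome 9 from 14190591 to 14191091 had 3.06, 8.45 and 12.3 CPM in late endosperm, against 16.7, 28.5 and 29.3 CPM in early endosperm. In all 3 regions every late endosperm value was below every early one. The chromosome 9 region is broadly accessible in the authors' list and reached 25.4 CPM in Pericycle of crown root.

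Central endosperm was also set against the other endosperm states, which the rule used as well, so the values describe the members. Central minus other endosperm, on the log2(CPM + 1) scale, had a median of -0.15, against -0.01 over all regions. It was above 1 for 25 members (2.5%), against 3.01% of all regions, and below -1 for 72 (7.2%), against 1.6%. Central endosperm was above the mean of the other endosperm states in both stages for 182 members (all regions: 30.2%) and below it in both for 540 (all regions: 33.2%). The highest of the 6 states was lateral endosperm of early seed for 436 members (all regions: 18.3%), late central endosperm for 202 (all regions: 25.7%) and late dorsal-lateral endosperm for 145 (all regions: 14.5%). The difference lay between -1 and 1 for 903 members. Late central endosperm is the shallowest of the 6 states, with 145 distinct values, and the part of depth in these differences was not tested.

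The region with the largest D in early central endosperm lies on chromosome 6 from 20171787 to 20172287. It had 20.9 CPM in late and 21.5 CPM in early central endosperm, against 3.03 and 1.62 CPM in the other late and 4.0 and 3.41 CPM in the other early endosperm states. Both aleurone values were lower still, at 1.28 CPM in late and 2.04 CPM in early seed. The region with the largest D in late central endosperm, on chromosome 5 from 16049001 to 16049501, had 31.6 CPM in late and 20.3 CPM in early central endosperm, against 5.96 and 2.08 CPM in the other late and 2.52 and 2.84 CPM in the other early endosperm states. It was open outside the seed too, at 17.1 CPM in Pericycle of seminal root, and the list names it for 11 states. In both regions central endosperm is separate from the other endosperm states in each stage, and a mean over 6 states still placed them in the set.

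The opposite case was the region with the largest D in late dorsal endosperm, on chromosome 7 from 6244935 to 6245435. It had 1.70 CPM in late central endosperm, against 16.7 CPM in late dorsal and 15.4 CPM in late dorsal-lateral endosperm. In early seed it had 13.3 CPM in central, against 26.1 CPM in dorsal and 30.1 CPM in lateral endosperm. The regions with the largest D in late dorsal-lateral, early dorsal and early lateral endosperm were also lowest in late central endosperm among the late endosperm states. On chromosome 5 from 13749405 to 13749905, late central endosperm had 5.06 CPM, against 17.6 CPM in dorsal and 24.3 CPM in dorsal-lateral endosperm. On chromosome 8 from 15627702 to 15628202 these values were 3.06 CPM, against 6.52 and 12.3 CPM, and on chromosome 2 from 8460548 to 8461048 they were 2.12 CPM, against 8.45 and 10.4 CPM. All of these gaps rest on the low value of late central endosperm, the shallowest endosperm state, and the part of depth was not tested. Members uneven between the zones were also less open in aleurone: the 25 with a central minus other difference above 1 had a median aleurone D of 0.27, the 72 below -1 had 0.07, and the 903 between had 1.27.

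Outside endosperm and aleurone, the set's mean level in the seed stayed above its own level in other organs. The members' mean over the other seed states had a median of 2.18 CPM in late seed, which is 17.1% of the endosperm level of that stage, and of 3.30 CPM in early seed, which is 23.2%. The mean over the other seed states was above the mean outside seeds for 894 members in late seed (all regions: 46.6%) and for 966 in early seed (all regions: 41.9%), although the rule favours regions that are low in those states. It did not hold for each state: all of them were above the mean outside seeds for 499 members in late and 854 in early seed. That count was not made over all regions. By state, the median ran from 1.76 CPM in Epiblast to 3.02 CPM in Late_seed_UN1 of late seed, and from 2.44 CPM in Nucellar_epidermis to 4.15 CPM in Radicle_meristem of early seed. Of the 19 other seed states, the highest was Radicle_meristem of early seed for 314 members (all regions: 5.49%), Coleoptile of early seed for 230 (all regions: 3.03%) and Late_seed_UN1 for 135 (all regions: 14%). D was above 0 in Late_seed_UN1 for 259 members (all regions: 51.2%) and in Radicle_meristem of early seed for 183 (all regions: 43.7%). Free DNA and droplets that hold nuclei of more than 1 state can raise such values, and their part was not tested.

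**Figure D4:**
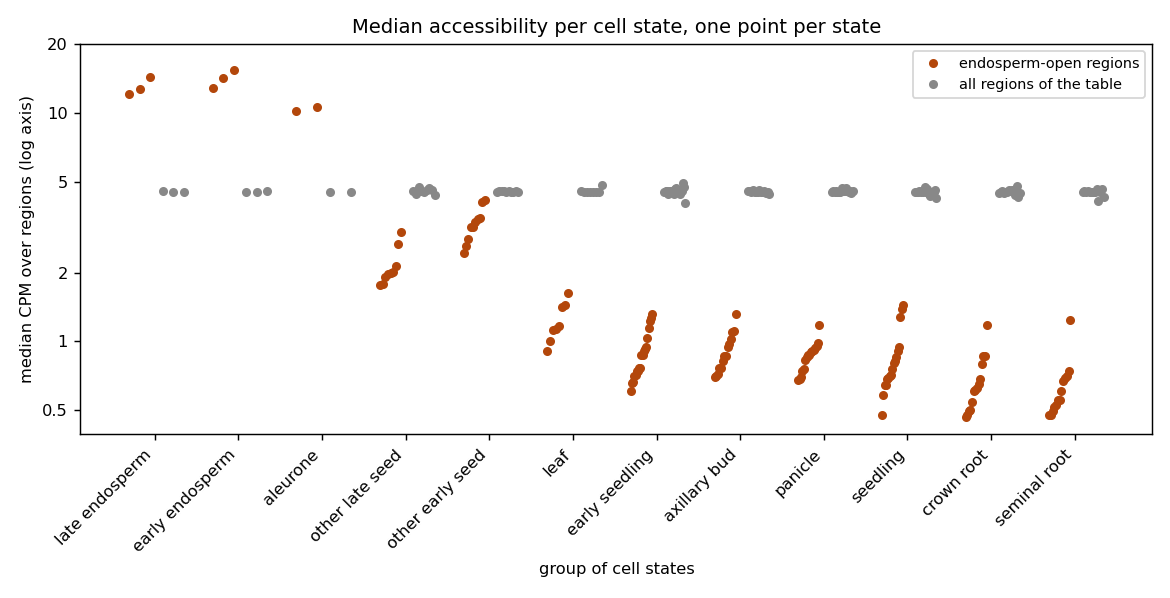
Median CPM over the 1000 endosperm-open regions (orange) and over all regions (grey) in each of the 128 cell states, grouped by tissue or organ, on a log axis. The chosen regions fall from 12.1 to 15.4 CPM in endosperm over 10.1 and 10.6 CPM in aleurone and 1.76 to 4.15 CPM in the other seed states to 0.466 to 1.63 CPM outside seeds, while the grey points stay between 4.02 and 4.91 CPM.

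In the 7 organs outside the seed, which the rule did not use, the members were low. Their median level was highest in leaf, at 1.27 CPM, against 4.85 CPM over all regions, and lowest in seminal root, at 0.689 CPM, against 5.00 CPM. The other organs lay between, at 0.970 CPM in early seedling, 0.914 CPM in axillary bud, 0.876 CPM in panicle, 0.858 CPM in seedling and 0.700 CPM in crown root. The single state with the lowest median was Endodermis of crown root, at 0.466 CPM, and that with the highest was Guard_cell of leaf, at 1.63 CPM. The mean over the 101 states was below 1 CPM for 566 members (56.6%), against 3.78% of all regions, and above the median of all regions for 24 (2.4%), against 50%. For 840 members (84.0%) the lowest endosperm value was above every value outside seeds, against 3.14% of all regions. How a region came to be in the table is not stated. A region open in endosperm alone could be in it, so the low outside values are no independent reading.

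A low mean did not exclude signal in single states. A level of 1 CPM was reached in 1 or more states outside seeds by 999 members (all regions: 100%), 2 CPM by 899 (all regions: 99.5%), 5 CPM by 238 (all regions: 92.4%) and 10 CPM by 91 (all regions: 75.8%). A state of seminal root held the highest outside value for 21 of those 91 members (23.1%), against 13.8% of all regions that reached 10 CPM. For axillary bud the count was 13 (14.3%), against 6.55%, and for early seedling it was 10 (11.0%), against 22.4%. By label, Companion_cell states held it for 8 of the 91 (8.79%), against 8.51% of all regions that reached 10 CPM, a share near the background. Endodermis states held it for 6 (6.59%), against 2.02%, and Mesophyll states for 6 (6.59%), against 4.29%. Developing_metaxylem, Pericycle and Procambial_meristem states held it for 5 each (5.49%), against 1.81%, 1.69% and 3.74%. The 3 members with the highest mean outside seeds differed in how widely they were open there. Highest was chromosome 1 from 33281325 to 33281825, with 12.4 to 23.9 CPM in late and 22.9 to 27.3 CPM in early endosperm, against a median of 11.8 CPM and a highest value of 30.2 CPM outside seeds, in Procambial_meristem of seminal root. Chromosome 10 from 16363188 to 16363688 reached 35.4 CPM in QC of seminal root and that on chromosome 4 from 13237140 to 13237640 reached 38.2 CPM in Phloem_parenchyma of axillary bud. In these 3 regions the highest outside value lies above all endosperm values, and the authors' list calls each broadly accessible.

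The authors' own list, made from the same nuclei and so no independent reading, holds 967 of the members with the same coordinates (all regions: 93.2%). It calls 663 members (66.3%) specific for 1 or more states, against 33.1% of all regions. The same 663 members (66.3%) are each named for 1 or more endosperm states, against 10.4% of all regions. Of the 42618 specific regions in all, 13433 are named for endosperm. All 6 endosperm states are named for 428 members (all regions: 1.2%), endosperm states and no others for 126 (all regions: 1.59%), and endosperm with aleurone for 494 (all regions: 5.5%). Only seed states are named for 604 members (all regions: 10.5%), and a state outside seeds for 59 (all regions: 22.6%). A specific member is named for 8 states at the median, against 5 for all specific regions. After the 6 endosperm states, the states named most often were Aleurone of early seed with 480, Aleurone of late seed with 394, Radicle_meristem of early seed with 197 and Coleoptile of early seed with 136 of the 663. Of all 42618 specific regions, 16.5%, 14.4%, 5.66% and 5.26% are named for these states in the same order.

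The list calls 304 members (30.4%) broadly accessible, against 60.1% of all regions. These had a median of 19.3 CPM in endosperm, 16.8 CPM in aleurone, 4.27 CPM in the other seed states and 1.28 CPM outside seeds. The 663 named for endosperm had 11.8, 8.83, 2.34 and 0.771 CPM in the same order of tissues. In 241 of the 304 (79.3%) the lowest endosperm value was above every value outside seeds, and so it was in 569 of the 663 (85.8%). The broadly accessible members are thus higher in every tissue class, and most of them have the same separation of endosperm from the other organs as the named ones.

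Position in the genome was not used by the rule. The members had a median of 26 other regions within 50 kb on either side, against 41 over all regions, and the nearest region lay 1528 bases away at the median, against 905 bases. A nearest region more than 5 kb away was found for 165 members (16.5%), against 3.09% of all regions, and more than 10 kb away for 52 (5.2%), against 0.659%. With 31 or fewer neighbours within 50 kb there were 633 members (63.3%), against 26.4% of all regions, and with 22 or fewer there were 390 (39.0%), against 10.9%. The members open in aleurone were the most isolated, with a median of 22 neighbours and 2219 bases to the nearest region. The class low in aleurone had 28 neighbours and 1329 bases, and the class between had 32 neighbours and 1175.5 bases.

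**Figure D5:**
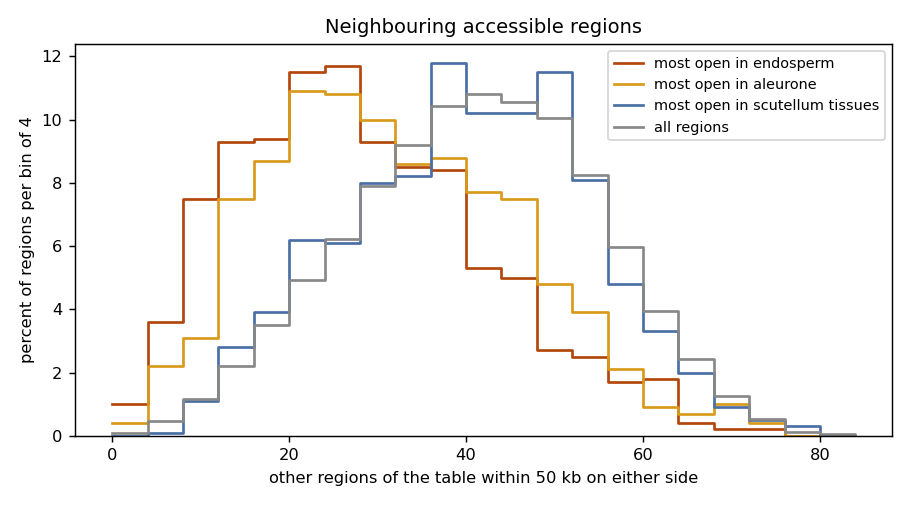
Number of other regions of the table within 50 kb on either side, as percent of regions per bin of 4, for the 1000 regions most open in endosperm, the 1000 most open in aleurone, the 1000 most open in the scutellum tissues (each by the same rule) and all regions. The endosperm set has a median of 26, the aleurone set 30, the scutellum set 40 and all regions 41.

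Regions of low mean level have fewer neighbours in this table in general, and the members' mean over all 128 states was low, at 2.03 CPM against 5.11 CPM. Among regions with a mean of up to 2 CPM, the 485 members had a median of 24 neighbours, against 35 over all 17072 regions of that level. Between 2 and 3 CPM the 324 members had 27, against 39, and between 3 and 5 CPM the 151 members had 30, against 41. Between 5 and 10 CPM the 38 members had 39.5, against 43. Above 10 CPM the 2 members had 35, against 43. The members' median was the lower at each level, and the part of the mean level in the number of neighbours was not tested. The 1000 regions picked by the same rule for aleurone had a median of 30 neighbours and shared 134 members with the endosperm set (13.4% of each), and those picked for Scutellum and Scutelar_vascular_bundle had 40 and shared 0. The mean CPM outside seeds had a median of 0.893 in the endosperm set, 1.14 in the aleurone set and 3.62 in the scutellum set. Over all regions it was 5.16.

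Chromosomes differed in how many of their regions were members. Per 1000 regions, chromosome 12 had 13.4 members, chromosome 11 had 10.5, chromosome 4 had 9.62 and chromosome 10 had 9.46. In this order they held 10.4%, 8.8%, 10.8% and 6.9% of the members, against 6.02%, 6.52%, 8.72% and 5.66% of all regions. Chromosome 3 had the fewest, at 4.36, followed by chromosome 2 at 6.08 and chromosome 1 at 6.67. These held 6.5%, 8.4% and 11.5% of the members, against 11.6%, 10.7% and 13.4% of all regions. Chromosomes 11 and 12 also had the fewest neighbours per region over the whole table, with medians of 33 and 34, and chromosome 3 the most, with 45. Chromosome 4, with 9.62 members per 1000 regions, had a median of 44, so the order of the chromosomes by members does not follow their order by neighbours throughout.

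Some members lay close together. Another member was found within 10 kb for 252 of the 1000, against 314 in the aleurone set and 400 in the scutellum set. No such count was made for 1000 regions taken at random. These counts and the runs below therefore have no background share and only describe the members. With gaps of at most 10 kb, 748 members stood alone, 180 formed 90 pairs, and the rest formed 14 runs of 3, 5 runs of 4 and 2 runs of 5. A run of 5 on chromosome 4 from 21268209 to 21276558 covers 8350 bases and holds 6 regions of the table, and the only region that is no member had a mean D of 1.07. Its members had a median of 17.4 CPM in endosperm, 5.81 CPM in aleurone and 1.45 CPM outside seeds. The other run of 5, on chromosome 1 from 14414082 to 14424673, holds 5 regions, all members, with 10.9 CPM in endosperm, 2.83 CPM in aleurone and 0.481 CPM outside seeds. The central minus other difference of its members was -1.38 at the median. The region with the largest mean D of all opens a run of 4 on chromosome 2 that ends at 20537543.

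Regions beside members that were not members themselves leaned the same way. Within 1 kb, the 271 adjacent regions had a median endosperm D of 0.74, and 63.8% were above 0.5, against 11.7% of all regions. The other sets leaned likewise within 1 kb. The median aleurone D beside aleurone members was 0.77, with 66.7% above 0.5 (all regions: 14.5%). Beside scutellum members the median D in the scutellum tissues was 0.50, with 49.6% above 0.5 (all regions: 6.13%). For the endosperm set, the median was 0.43 for the 339 regions at 1 to 2 kb and 0.19 for the 473 at 2 to 5 kb. It was 0.18 for the 517 at 5 to 20 kb, of which 32.5% were still above 0.5. For regions at 5 to 20 kb from a scutellum member, the median D in the scutellum tissues was 0.07, and 9.14% were above 0.5, against 6.13% of all regions. For the aleurone set these values were 0.29 and 38.2%, against 14.5%. No test of these differences between sets was run.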

How the data were processed

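The authors deposited a table of log2 values for 128764 regions in 128 cell states, derived from CPM per its name, and a list of 120048 regions with the states the authors call each specific for, or the words broadly accessible. The list holds names and no score. Per the submitters' processing notes BWA and MACS2 were used, with no version or role given. The deposited log2 values run from -3.24 to 6.21, and 2 raised to them sums to between 1007548 and 1008613 in each column. Column medians over all regions lie between 4.02 and 4.91 CPM. The highest mean CPM of a region was 73.9 over the aleurone, the other seed and the outside states alike. The columns thus share nearly the same spread of values as well as a total. The step behind this is not stated. The near-equal medians over all regions are therefore a property of the deposited values and not a result. How doublets were treated and whether cut sites were shifted is not stated in the labels.

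Columns were assigned to organs by their prefix, and the number not assigned was 0. Each column pools the 2 libraries of an organ, carries no replicate number and gives no depth, so no test, SD or interval was computed, and differences cover neither replicate nor counting error. All states of an organ share its libraries. A pseudocount of 1 was added, which understates differences of regions with low values. No low region was removed. Regions of the table were matched to the list by identical coordinates. Distances run between midpoints of regions, each 501 bases wide.

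The members, and the comparisons made of them, were chosen with earlier results of these data known. Regions named in the text are the 10 with the largest mean D, the largest D per endosperm state, the 3 largest and 3 smallest late minus early differences, the 3 on each side of the limit and the 3 highest outside seeds. Runs of members were named after their values were seen. The code of the rule was tried on simulated data with raised regions and independent noise. That trial did not copy shared libraries or uneven depth, so it checks the code and not these results. Positions near gene starts, sequence motifs and marker genes were planned and are not analysed here, since no genome of the files' build was at hand. Python 3.11.15, numpy 2.4.6, pandas 2.3.3 and matplotlib 3.10.9 were used.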

Additional observations from a re-analysis of the deposited data

How the results depend on the processing

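Under the 14 other ways of choosing the set (pseudocount, scale, filter, subtracted mean, each endosperm state left out, number of regions), between 500 and 1000 of the members stayed in it. The values as deposited, without the pseudocount of 1, kept 626, and taking only 500 regions kept 500. Leaving out late Central_endosperm kept 711, the lowest count for any endosperm state left out. With a pseudocount of 5, which shrinks D for every region, 22.2% of the regions chosen in early seed passed 1 in late seed (all regions: 0.257%), 15.7% of those chosen in late seed passed 1 in early seed (all regions: 0.186%), and 10.5% of the set passed 1 in both aleurone states (all regions: 0.351%). Without early Central_endosperm, 45.3% of the early choice passed 1 in late seed (all regions: 2.79%). A limit of 5 CPM left 23.8% open in some state outside seeds (all regions: 92.4%). A distance of 50 kb left 44.3% with another member nearby, a share with no background. Across these ways of choosing, the share whose highest state was endosperm ran from 75.7% to 85.7%, the share with 31 or fewer neighbours from 54.4% to 66.6%, and the share named for endosperm from 44.3% to 84.8%. The 3 results on aleurone, on the highest state and on neighbours were added, with the same alternatives, after seeing the data. The 31 named regions kept a mean D above 0 under every alternative, at least 0.67. A filter at a mean of 1 CPM removed 1929 regions, 41 of them members. No paired analysis was possible because each column pools both libraries of its organ and carries no replicate number; for the same reason no replicate could be left out. Alternatives for gene starts and motifs were not run. Depth per state is unknown, and late central endosperm, the shallowest endosperm state by its 145 distinct values, limits what its low values show.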
